A study of Mus musculus with 24 samples.

Results

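Dimethylation of histone H3 at lysine 4 (H3K4me2) was mapped in Prdm16 KO and wild-type embryoid bodies, cell aggregates that differentiate from mouse embryonic stem (ES) cells, on day 6 of differentiation. The 4 peak lists are those whose sample titles name H3K4me2 and embryoid bodies, 2 from KO and 2 from wild type, out of 24 lists in the whole data set. The other lists hold H3K4me1 and PRDM16 in the same embryoid bodies and all 3 targets in ES cells. All cells are of C57BL/6 background, embryoid bodies were grown in a medium with serum and without the LIF that the ES cells received, and the same antibody (millipore, 07-030) was used for all 4 libraries. The labels give the KO genotype as Prdm16 KO and do not describe the allele, the clone or the sex of the line, nor whether replicates came from separate cultures, so that every p-value measures the spread between these libraries and no more. Signal was read by CUT&RUN, in which a nuclease tethered to an antibody releases the DNA around the bound protein. Peaks on chromosomes 1 to 19, X and Y that shared at least 1 bp were merged across the 4 lists into 22534 regions, and a region was called KO-only when both KO lists and neither wild-type list had a peak in it, and wild-type-only in the reverse case. By this rule KO-only regions numbered 577 (2.56% of all) and wild-type-only regions 1455 (6.46%).

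H3K4me2 is laid down by the KMT2 methyltransferases at active and poised promoters and at many enhancers, and is removed by demethylases of the KDM1 and KDM5 families. CpG-rich promoters commonly carry it whether or not the gene is transcribed, whereas distal enhancers tend to carry it together with H3K4me1. PRDM16 is a zinc-finger protein with a PR domain, known for its part in brown fat, blood stem cells and the developing brain, and the domain has been linked to methylation of histone H3. Embryoid bodies hold cells of all germ layers side by side, so in these bulk samples fewer cells of a type and less mark per cell cannot be told apart.

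The promoters beneath changed regions ranged widely in CG content, and 4 are shown because the peaks of 1 genotype covered all 250 bases upstream of the start and those of the other covered none. The sequences are from RefSeq (GRCm38.p6, the coordinates of mm10), read 5′ to 3′ toward the gene, with each CG dinucleotide in capitals. Atoh1, which encodes a proneural transcription factor, lies under a KO-only region and its stretch (chr6:64728875-64729124, plus strand) holds 14 CG. Jag1, which encodes a Notch ligand, also lies under a KO-only region and holds 20 CG (chr2:137116521-137116770, minus strand). Cartpt, which encodes a neuropeptide precursor, lies under a wild-type-only region and holds 22 CG (chr13:99900684-99900933, minus strand). Gabrg1, which encodes a subunit of the GABA-A receptor, lies under a wild-type-only region and holds 1 CG (chr5:70842618-70842867, minus strand).
Atoh1: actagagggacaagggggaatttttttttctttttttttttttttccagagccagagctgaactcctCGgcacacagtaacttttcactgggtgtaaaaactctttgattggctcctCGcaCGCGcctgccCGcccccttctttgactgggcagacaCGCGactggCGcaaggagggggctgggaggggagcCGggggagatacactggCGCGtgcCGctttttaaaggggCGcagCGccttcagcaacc
Jag1: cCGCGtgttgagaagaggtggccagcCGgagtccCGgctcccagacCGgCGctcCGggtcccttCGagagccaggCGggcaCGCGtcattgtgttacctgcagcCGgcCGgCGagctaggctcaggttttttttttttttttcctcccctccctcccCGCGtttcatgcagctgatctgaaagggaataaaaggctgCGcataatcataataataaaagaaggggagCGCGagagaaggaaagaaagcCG
Cartpt: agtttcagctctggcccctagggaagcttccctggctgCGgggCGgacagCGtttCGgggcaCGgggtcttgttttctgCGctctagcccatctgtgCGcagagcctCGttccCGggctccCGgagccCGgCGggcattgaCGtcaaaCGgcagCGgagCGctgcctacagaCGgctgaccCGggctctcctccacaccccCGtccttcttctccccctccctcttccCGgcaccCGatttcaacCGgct
Gabrg1: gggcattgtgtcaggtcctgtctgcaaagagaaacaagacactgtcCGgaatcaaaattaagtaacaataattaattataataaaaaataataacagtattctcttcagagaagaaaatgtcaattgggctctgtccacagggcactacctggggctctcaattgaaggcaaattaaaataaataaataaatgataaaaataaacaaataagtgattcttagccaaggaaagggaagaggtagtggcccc
A promoter entry was found for 363 of 448 KO-only genes and 278 of 358 wild-type-only genes. Where a gene had several entries, the one with the most CG was counted. Because genes were called at either end, that stretch need not lie under a changed region. The median number of CG in these 250 bases was 16 in KO-only genes and 10 in wild-type-only genes. It was 17 in genes with a peak in all 4 lists, 2 in genes with a peak in none, and 11 over all 17491 genes with an entry. At least 10 CG were present in 73.3% of KO-only genes and 51.4% of wild-type-only genes, against 53.1% of all genes, which is a description of the letters in this window and not of binding.

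Between the whole lists, H3K4me2 covered less of the genome in KO, in narrower peaks that lay more often at gene ends. The KO lists held 15205 and 13818 peaks, against 14334 and 19246 in wild type, and the groups overlapped in this measure. Peaks covered 39.1 and 39.2 Mb in the KO lists, against 47.7 and 62.6 Mb in the wild-type lists, and the groups did not overlap. The median peak width was 2331 and 2606 bp in KO, against 3148 and 3013 bp in wild type, again without overlap. The share of peaks within 2500 bp of either end of a protein-coding gene was 71.8% and 72.6% in KO, against 69.0% and 56.8% in wild type.

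As log2 ratios of KO over wild type, the peak number differed by -0.20 (two-sided exact permutation p = 0.667), the covered length by -0.48 (exact p = 0.333) and the median width by -0.32 (exact p = 0.333), with n = 2 each. The gene-end share was 72.2% ± 0.54 in KO and 62.9% ± 8.61 in wild type (SD, n = 2 each), a difference of 9.34 percentage points (exact p = 0.333). With 2 libraries against 2 the smallest p that this test can reach is 0.333, so no difference of whole lists could pass a threshold of 0.05. The title of wild-type replicate 2 has another prefix (400-JX) than the titles of the other 3 libraries (329-BZ), and its list was the longest, with a median score of 190.4, against 126 and 111 in KO and 129 in wild-type replicate 1. Without it the log2 ratio of peak number was 0.02, that of covered length -0.28 and that of median width -0.35, and the gene-end difference was 3.25 percentage points.

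**Figure D1:**
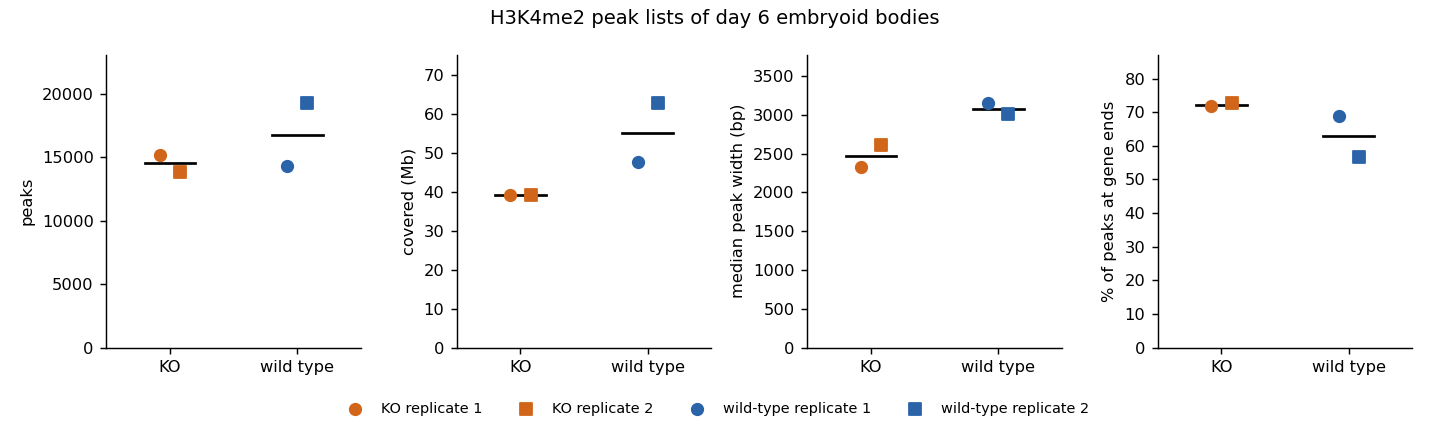
Peak number, covered length in megabases, median peak width in bp and percent of peaks within 2500 bp of a gene end, one point per library, with KO (orange) left of wild type (blue) and a line at the mean of each pair. KO points lie below both wild-type points for covered length and median width and above them for the gene-end share, and the wild-type replicates lie furthest apart in peak number, covered length and gene-end share.

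Peaks were also narrower in KO where no list lacked a peak. In the 10319 regions found in all 4 lists (45.8% of regions), the median covered length was 2484 and 2753 bp in KO, against 3484 and 3816 bp in wild type, so that each wild-type list covered more than each KO list. The means were 2618 ± 190.2 bp in KO and 3650 ± 235 bp in wild type (SD, n = 2 each), a log2 ratio of -0.48 (two-sided exact permutation p = 0.333, the smallest possible). Both KO lists covered at least 2-fold more than both wild-type lists in 2 of these regions, and at least 2-fold less in 244. The other 4 ways to set 2 lists against 2 gave between 0 and 2 regions. The regions named next were chosen after their values were seen. At Lpar4, a receptor for lysophosphatidic acid on chromosome X, peaks covered 908 and 1023 bp in KO, against 4143 and 7152 bp in wild type. At Cntn4, a neuronal adhesion molecule of the contactin family, they covered 647 and 1151 bp in KO, against 3674 and 3934 bp in wild type. At Myt1l, a neuronal zinc-finger transcription factor, they covered 996 and 779 bp in KO, against 3065 and 3739 bp in wild type. The reverse was seen at Slc13a4, a sulphate transporter, with 4498 and 4428 bp in KO, against 1634 and 1729 bp in wild type.

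Of the 6 ways to choose 2 lists of 4, the choice of both KO lists held 577 regions and the choice of both wild-type lists held 1455, the most of any. The mixed choices held 123 regions for KO replicate 1 with wild-type replicate 1, 640 for KO replicate 1 with wild-type replicate 2, 41 for KO replicate 2 with wild-type replicate 1 and 417 for KO replicate 2 with wild-type replicate 2. Among the 3 choices that include wild-type replicate 2, the longest list, wild-type-only regions were thus the most numerous, at 1455 against 640 and 417. Among the 3 that leave it out, KO-only regions were the most numerous, at 577 against 123 and 41. Regions of 1 list alone numbered 1172 and 721 in KO, against 475 and 4110 in wild type.

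**Figure D2:**
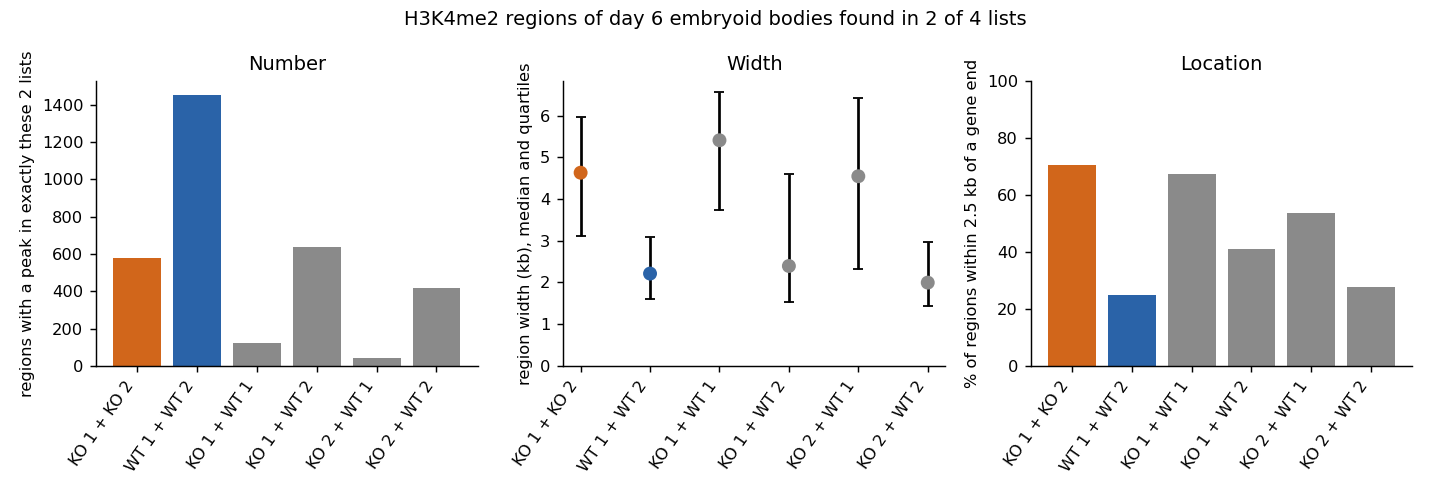
Regions with a peak in exactly 2 of the 4 lists, for KO-only (orange), wild-type-only (blue) and the 4 mixed choices (grey): their number, their width in kb (point, median; bar, lower to upper quartile) and the percent within 2.5 kb of a gene end. Choices that include wild-type replicate 2 are narrower and less often at gene ends than choices that leave it out, whichever library it is paired with.

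KO-only regions were wide and lay mostly at promoters, and wild-type-only regions were narrow and lay mostly away from them. The median width was 4634 bp for KO-only regions and 2214 bp for wild-type-only regions, against 4176 bp for regions of all 4 lists. Gene ends were within 2500 bp of 70.4% of KO-only regions and 24.8% of wild-type-only regions, against 80.8% of regions of all 4 lists. Of KO-only regions 93 lay elsewhere inside genes and 78 outside them, whereas of wild-type-only regions 544 lay inside genes and 550 outside. The median distance from a wild-type-only region to the nearest start listed for a gene was 32144 bp.

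The contrast in width and location moved with wild-type replicate 2 as well as with genotype. Mixed regions without that list were as wide as KO-only regions, with medians of 5412 and 4549 bp and gene-end shares of 67.5% and 53.7%. Mixed regions with that list had medians of 2396 and 1997 bp and gene-end shares of 40.9% and 27.8%. The part of the genotype in the contrast between KO-only and wild-type-only regions therefore cannot be told apart from that of this library. When peaks with scores of at least 100 alone were kept, the gene-end share of wild-type-only regions was 55.1%, and in the higher-scoring 50% of each list it was 67.7%, against 78.9% and 78.6% of KO-only regions at the same settings.

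The share of regions called in each direction depended on region width. Among 2814 regions of 6000 bp or more, 143 (5.08%) were KO-only and 45 (1.60%) wild-type-only. Among 6590 regions under 2000 bp, 70 (1.06%) were KO-only and 609 (9.24%) wild-type-only. In every list the score, whose unit the sources used here do not give, was highest at intermediate widths and lower in the widest peaks. In peaks of 3000 to 4000 bp the median score was 158 and 135 in KO, against 174 and 319 in wild type. In peaks of 6000 to 8000 bp it was 74.9 and 72.6 in KO, against 82.1 and 128 in wild type. The widest peak was 8141 and 7999 bp in the KO lists, against 8391 and 8714 bp in the wild-type lists. All scores were at least 50. Peaks under 1000 bp stood close to this floor, with medians of 65.7 and 64.2 in KO, against 60.7 and 66.3 in wild type. So did the few peaks of 8000 bp or more, which numbered 2 and 0 in KO, against 7 and 91 in wild type. Their median was 58.8 in KO replicate 1, against 54.6 and 62.4 in wild type. Whether a broad domain or a narrow peak of H3K4me2 dropped out of a list at this floor was not tested.

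**Figure D3:**
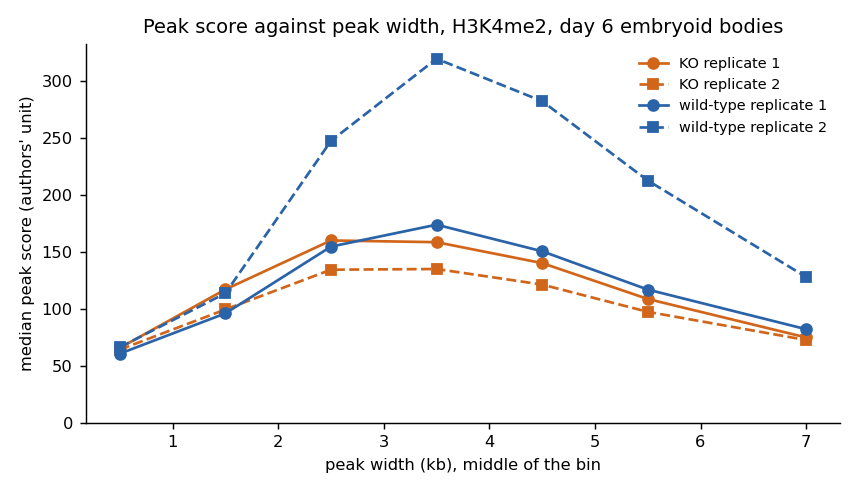
Median peak score (the authors' unit, vertical axis) against peak width in kb (middle of each width class, horizontal axis) for the 4 lists, KO in orange and wild type in blue, replicate 1 with circles and solid lines, replicate 2 with squares and dashed lines. All 4 curves are highest between 2 and 4 kb and decline toward 7 kb, and wild-type replicate 2 lies above the others from 2 kb upward.

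Changed regions came mainly from the weaker peaks of each list. In KO-only regions the median score was 89.2 in KO replicate 1 and 77.1 in KO replicate 2, and 5.72% and 2.60% of these peaks were above the upper quartile of their list. In wild-type-only regions it was 70.2 in wild-type replicate 1 and 125 in wild-type replicate 2, with 0.89% and 1.99% above the upper quartile. In regions of all 4 lists, for comparison, medians were 156 and 131 in KO, against 157 and 305 in wild type. Few changed regions had a peak of the other genotype beside them. Within 2000 bp of a KO-only region, 12 and 17 of 577 had a peak in wild-type replicates 1 and 2, and within 2000 bp of a wild-type-only region, 22 and 13 of 1455 had one in KO replicates 1 and 2.

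The highest-ranked KO-only regions at gene ends lay at Dtx4, Atoh1 and Jag1. By the rule of ranking gene-end regions on the lower of their 2 score ranks, the first 15 included those at Dtx4, Atoh1, Jag1, Pitpnm2 with its neighbours Arl6ip4 and Ogfod2, Nxph1, Snx10, Lrrc4, Ldhb, Mab21l2, Tmeff1, Tshz3, Irx2, Mtcl1 and Pcdhgc3. At Atoh1 (region chr6:64727135-64731527, over the start) the scores were 310.2 and 319 in the KO lists, with no peak in either wild-type list. At Jag1 (chr2:137113388-137117918, over the start) they were 272 and 206 in KO, with none in wild type. Dtx4, which encodes a Deltex ubiquitin ligase that acts on Notch, had the highest rank (chr19:12498857-12502389, at a gene end), with 334 and 293 in KO and none there in wild type, although wild-type replicate 2 had 1 peak elsewhere in the gene. At Irx2, an Iroquois homeobox gene, the region had 204 and 136 in KO and none in wild type. The rule takes the widest regions as well, and these were KO-only regions at Dido1 and Gid8 (13208 bp), Sox6 (10649 bp), Zfp398 and Zfp786 (9824 bp), Dmrt2 (9441 bp), and Rpl38 and Ttyh2 (9364 bp).

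By the same ranking, the first 15 wild-type-only regions at gene ends lay at Lrif1, Gabrg1, Cartpt, Jakmip2, Mapk10, Uty, Spin2c, Enpp3, B3gat1, Zfp33b, Kndc1, Kcnk9, Sowahb, Hrh2 and St3gal2. At Lrif1, whose protein interacts with nuclear receptors and heterochromatin protein 1, no KO list had a peak in the region and wild-type scores were 240.2 and 444 (chr3:106684394-106686373, over a start). At Gabrg1 (chr5:70841829-70843708, over the start) there was no peak in KO, and wild-type scores were 230.0 and 418. At Cartpt (chr13:99899459-99901447, over the start) there was no peak in KO, and wild-type scores were 236 and 403. Mapk10, which encodes the neuronal kinase JNK3, had none in KO and scores of 186 and 409 in wild type (chr5:103208034-103212233, over the start). Of these 4 regions, those at Lrif1, Gabrg1 and Cartpt had a peak in all 4 H3K4me2 lists of ES cells, and that at Mapk10 in none of them. The 250 bases upstream of another listed Lrif1 start (chr3:106721432-106721681) met a region with a peak in all 4 embryoid body lists. Peaks covered 0 and 187 of these bases in KO, against 33 and 237 in wild type. The widest wild-type-only regions lay at Mmp15 and Usb1 (12209 bp), Arl8b and Edem1 (8583 bp), Nol4l (8351 bp), Runx1 (8168 bp), the blood stem cell transcription factor, and Adgra2 (8119 bp).

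Counted by gene, 448 of 21883 protein-coding genes (2.05%) were marked at an end, by the same 2500 bp limit, in both KO lists and in neither wild-type list, and 358 (1.64%) had the reverse. Genes marked in all 4 lists numbered 9536 and genes marked in none 8268. The number of marked genes was 12009 and 11279 in KO, against 11179 and 12144 in wild type, so that the groups overlapped. The order of the 2 counts was not stable. There were fewer KO-only than wild-type-only genes with scores of at least 100 (153 against 661), in the higher-scoring 50% of each list (287 against 603), without KO replicate 1 (610 against 927) and without wild-type replicate 1 (671 against 899). The genes of 20 lists are described next as counts, beside these background shares, and without a test. A score, or none, belongs to the region at the gene end, and a gene called in 1 direction can hold peaks of the other genotype elsewhere.

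Among 26 transcription factors of the neuroectoderm, 5 were KO-only and none was wild-type-only (19.2% and 0%). Without the 3 genes that earlier results of these data had named, 2 of 23 were KO-only and 0 wild-type-only. Genes of this list marked by a peak numbered 9 and 8 in KO, against 1 and 2 in wild type. The 5 are Otx2 of the forebrain and midbrain, Lhx2 of the forebrain and eye field, Emx2 of the dorsal telencephalon, En2 of the midbrain and hindbrain boundary and Nkx2-2 of the ventral neural tube. At Lhx2 (chr2:38336380-38341585, over a start) scores were 107 and 98.1 in KO, with no peak in wild type. At Otx2 (chr14:48653325-48657627, at the gene end away from the starts) they were 94.2 and 66.8 in KO, with none in wild type. Emx2 had 72.8 and 69.9 in KO, and Nkx2-2 82.3 and 69.1 in KO, with no peak in wild type. These regions of Emx2 and Nkx2-2 were not within 2500 bp of a listed start. The region at the Emx2 start had a peak in KO replicate 1 alone. The 250 bases upstream of the listed Nkx2-2 start were covered in no list. En2 was called from different regions in the 2 KO lists, with scores of 75.3 and 83.6. All these scores were low for their lists: with scores of at least 100 no gene of this list was called in either direction, and in the higher-scoring 50% of each list the 1 call was KO-only, at Pax2. With each library left out in turn, 5 to 8 were KO-only and 0 wild-type-only. With peaks under 4000 bp alone, a setting chosen after seeing the data, 1 of 26 was KO-only (3.85%), against 1583 of all genes (7.23%). In ES cells the order was the other way round, with 7 and 9 genes of the list marked in KO, against 12 and 12 in wild type.

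**Figure D4:**
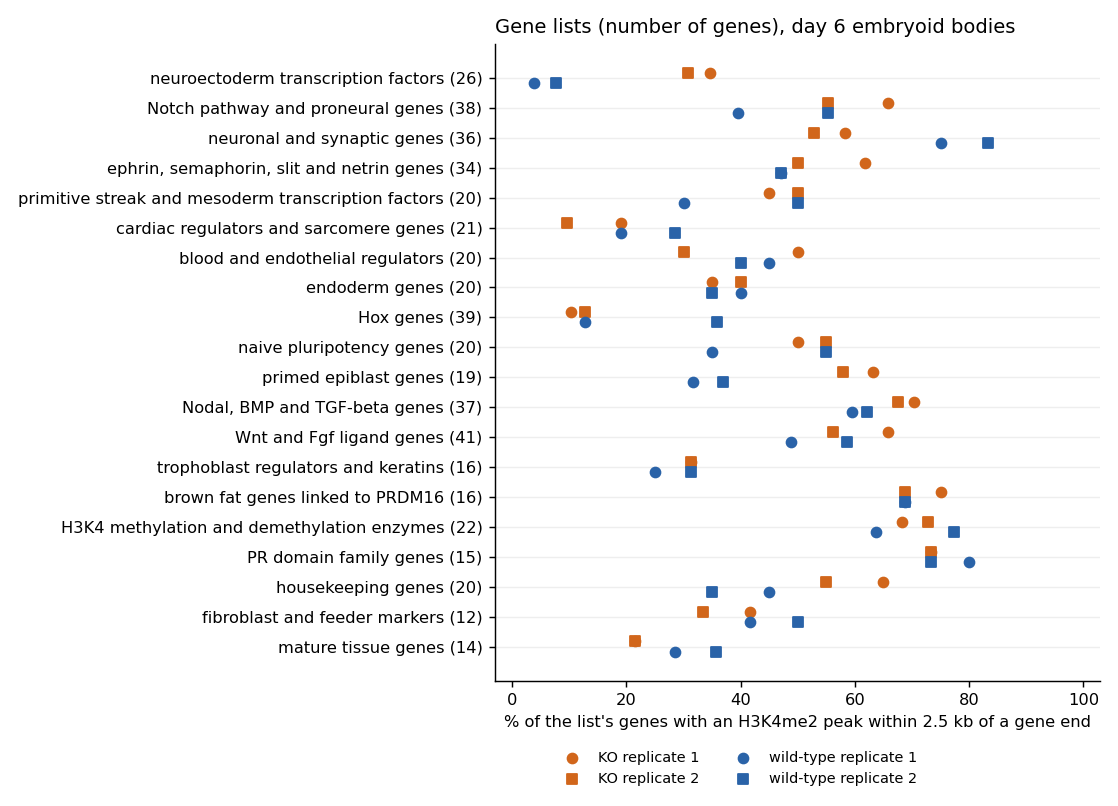
Percent of the genes of each of 20 lists (number of genes in brackets) that had an H3K4me2 peak within 2.5 kb of a gene end, one point per library, KO in orange above wild type in blue, replicate 1 as circles and replicate 2 as squares. Both KO points lie above both wild-type points for neuroectoderm transcription factors, primed epiblast genes, housekeeping genes, Nodal, BMP and TGF-beta genes and ephrin to netrin genes, and both lie below for neuronal and synaptic genes and mature tissue genes.

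Genes of the Notch pathway and proneural factors were called in both directions, 6 of 38 KO-only and 2 wild-type-only (15.8% and 5.26%). Without the 3 genes that earlier results had named, 3 of 35 were KO-only, with 2 in the reverse direction. Notch signalling passes between touching cells from Delta and Jagged ligands to Notch receptors, and holds back the proneural factors that drive neuronal differentiation. Of the ligands, Jag1 was KO-only and Jag2 wild-type-only, the second with no peak in KO and scores of 55.7 and 178 in wild type. Of the receptors, Notch2 was KO-only, with 87.3 and 64.7 in KO and none at this region in wild type, where replicate 2 had 1 peak elsewhere in the gene. Dtx4 was KO-only, and the Notch target Heyl was wild-type-only, with no peak in KO and 76.0 and 101 in wild type. The KO-only genes also included the proneural factors Atoh1 and Neurog3, the second with 56.5 and 95.3 in KO and no peak in wild type. List genes marked numbered 25 and 21 in KO, against 15 and 21 in wild type. With scores of at least 100, 4 genes of the list were KO-only, Atoh1, Dtx4 and Jag1 among them, and Dtx2 and Mfng were wild-type-only.

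Neuronal and synaptic genes had the reverse balance, with 2 of 36 KO-only and 9 wild-type-only (5.56% and 25%). Marked genes of this list numbered 21 and 19 in KO, against 27 and 30 in wild type. The 9 include the receptor subunit Gabrg1, the neuropeptide gene Cartpt, the presynaptic adhesion gene Nrxn3, its relative Cntnap2, the adhesion gene Lrrc4c, the RNA-binding protein gene Elavl3, the kinase gene Mapk10 and Jakmip2. At Cntnap2 (chr6:45059189-45060850, over the start) no KO list had a peak in the region and wild-type scores were 152 and 417. At Nrxn3 (chr12:88722658-88724548, at a gene end) no KO list had a peak in the region and wild-type scores were 163 and 297. Both KO lists had peaks elsewhere in these genes and in Lrrc4c. The whole of Cntnap2 held 1 and 3 peaks in KO, against 3 and 6 in wild type. The whole of Nrxn3 held 2 and 1 peaks in KO, against 3 and 5 in wild type, and that of Lrrc4c 2 and 1 in KO, against 2 and 2 in wild type. Elavl3 had none in KO and scores of 62.5 and 75.4 in wild type. The KO-only pair was Nxph1, a secreted ligand of neurexins, with 325 and 165 in KO, and Lrrc4, a postsynaptic adhesion gene, with 168 and 185 in KO, and neither had a peak in wild type. At higher scores the balance was similar: with scores of at least 100 there were 2 KO-only and 8 wild-type-only genes, and in the higher-scoring 50% of each list 2 and 7. Earlier results of these data were known when the list was drawn up, and of the 30 genes that those results had not named, 0 were KO-only, while 5 were wild-type-only. In ES cells marked genes of the list numbered 28 and 26 in KO, against 25 and 25 in wild type.

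KO-only calls were made at 5 of 41 Wnt and Fgf ligand genes (12.2%), and wild-type-only calls at 0. The 5 are Wnt1, a signal of the midbrain and hindbrain boundary, Wnt4, Wnt7b, Fgf15 and Fgf17. At Wnt1 (chr15:98788906-98793947, over the start) scores were 76.7 and 54.8 in KO, with none in wild type. At Fgf15 they were 130.5 and 125 in KO, with none in wild type. Marked ligand genes numbered 27 and 23 in KO, against 20 and 24 in wild type, so that the groups overlapped. With scores of at least 100, and likewise in the higher-scoring 50% of each list, 2 ligand genes were KO-only and 1, Fgf3, was wild-type-only. Wild-type replicate 2 had 1 peak elsewhere in Wnt7b. Of 37 Nodal, BMP and TGF-beta genes 3 were KO-only (8.11%), the ligand gene Tgfb3, the signal transducer Smad3 and its inhibitor Skil. The inhibitor Ski was the 1 wild-type-only gene (2.70%), beside background shares of 2.05% KO-only and 1.64% wild-type-only. With scores of at least 100, and likewise in the higher-scoring 50% of each list, Smad3 alone was KO-only and Smad1 alone wild-type-only. At the start of Smad3 scores were 189.7 and 119.7 in KO with none in wild type, while the whole gene held 1 and 2 peaks in KO, against 1 and 2 in wild type. At the end of Ski there was none in KO, and scores were 88.3 and 146 in wild type, while the whole gene held 1 and 0 peaks in KO, against 3 and 2 in wild type. Of 34 ephrin, semaphorin, slit and netrin genes 2 were KO-only (5.88%), the receptor gene Epha2 and the ligand gene Efna5, and 0 wild-type-only. At the same 2 score settings 0 genes of this list were KO-only and 1, Dcc, was wild-type-only. Over the whole of Efna5 there were 1 and 1 peaks in KO, against 3 and 5 in wild type.

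Among genes of the early embryo, 3 of 19 primed epiblast genes (Otx2, Pou3f1 and Tcf7l1) and 2 of 20 naive pluripotency genes (Tdgf1 and Utf1) were KO-only, and 0 of either list wild-type-only. Primed epiblast genes marked numbered 12 and 11 in KO, against 6 and 7 in wild type, and naive genes 10 and 11 in KO, against 7 and 11 in wild type. Tcf7l1, a repressor in the Wnt pathway, had scores of 159.5 and 113 in KO and none at this region in wild type, where replicate 2 had 4 peaks elsewhere in the gene. Tdgf1, a Nodal co-receptor, had 93.2 and 58.5 in KO and none in wild type. Utf1 was called from different regions in the 2 KO lists. Pou3f1 had scores of 51.8 and 55.2 in KO, near the floor of 50, and none in wild type. With scores of at least 100, Tcf7l1 was the 1 KO-only gene of the primed list and Pim2 was wild-type-only. At that setting 0 naive genes were called in either direction. In the higher-scoring 50% of each list, Tcf7l1 was KO-only and no other gene of the 2 lists was called.

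Calls in lists of other germ layers and cell types are given beside background shares of 2.05% KO-only and 1.64% wild-type-only. In lists this short, few or no calls cannot show whether a list differs from that background. Of 20 primitive streak and mesoderm factors 1 was KO-only (5%), the repressor Snai1. Its scores were 54.0 and 51.3 in KO, with none in wild type. Of 21 cardiac genes 2 were wild-type-only (9.52%), the homeobox gene Nkx2-5 and Smarcd3, which encodes a chromatin remodelling subunit. Nkx2-5 had no peak in KO and scores of 61.0 and 91.4 in wild type. Of 20 endoderm genes Onecut1 was KO-only and Foxa3 wild-type-only (5% each). Of 20 blood and endothelial regulators 0 were called in either direction at gene ends, and marked genes numbered 10 and 6 in KO, against 9 and 8 in wild type. Of 16 trophoblast and keratin genes Tfap2c was KO-only and Krt7 wild-type-only (6.25% each). Markers of fibroblasts or feeder cells (12 genes) and of mature tissues (14 genes) gave 0 calls in either direction, with 5 and 4 fibroblast genes marked in KO, against 5 and 6 in wild type.

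Of 39 Hox genes, which set position along the body axis, 0 were KO-only, against 2 that were wild-type-only (Hoxb1 and Hoxd4). Hoxb1 had no peak in KO and scores of 58.5 and 52.6 in wild type, and Hoxd4 none in KO and 64.7 and 107 in wild type. Hox genes marked numbered 4 and 5 in KO, against 5 and 14 in wild type, so the higher number marked in wild type rested on replicate 2. The 2 wild-type-only genes were, by the rule, marked in both wild-type lists. Without wild-type replicate 1 there were 9 wild-type-only Hox genes, and without wild-type replicate 2 there were 3. With scores of at least 100 there were 0.

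Of 22 genes for H3K4 methylating and demethylating enzymes, the methyltransferase gene Kmt2b was KO-only, with 94.1 and 65.8 in KO and none in wild type, and 0 were wild-type-only. Of 15 PR domain genes Prdm10 was called wild-type-only, although its region had peaks in all 4 lists, because the KO peaks there covered 3268 and 2139 bp, against 5136 and 5373 bp in wild type, and did not reach to within 2500 bp of the gene end. Of 16 brown fat genes linked to PRDM16 0 were called, with 12 and 11 marked in KO, against 11 and 11 in wild type. Of 20 housekeeping genes 2 were KO-only, among them the chaperone gene Hsp90ab1, with 0 in the reverse direction. Hsp90ab1 was called from different regions in the 2 KO lists, with scores of 103.9 and 50.7. Marked housekeeping genes numbered 13 and 11 in KO, against 9 and 7 in wild type. A share of housekeeping promoters was thus without a peak in each list, and more so in wild type. Whether this bears on the KO-only calls at other promoters was not tested.

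Several long genes held groups of wild-type-only regions. Genes whose span, with 2500 bp on each side, held at least 3 regions of 1 direction and none of the other were Tead1 with 4, and Mcc, Pebp4, Rad51b, Sox5, Znrf3 and Zswim6 with 3 each, all wild-type-only. No gene met the rule for KO-only regions. Tead1, a transcription factor of the Hippo pathway (chr7:112679356-112906784), had 1 and 1 peaks in KO, against 5 and 7 in wild type, covering 4.78 and 2.28 kb in KO and 12.5 and 27.8 kb in wild type. Sox5, a SoxD transcription factor (chr6:143828425-144782287), had 3 and 4 peaks in KO, against 5 and 9 in wild type. Znrf3, a ubiquitin ligase that removes Wnt receptors (chr11:5276329-5444847), had 2 and 1 peaks in KO, against 4 and 5 in wild type.

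Prdm16 itself (chr4:154316122-154637360) had no H3K4me2 peak in either KO list, against 3 and 4 peaks in the wild-type lists, covering 0 kb in each KO list, and 6.10 and 8.90 kb in wild type. Of the 6 regions in the gene, 1 was wild-type-only (chr4:154472067-154473874), with scores of 56.2 and 95.9 in wild type, and the other 5 were in 1 wild-type list each. These peaks lay inside the gene and away from its ends, so they do not enter the gene counts above. H3K4me1 was present in the gene in both genotypes, with 6 and 3 peaks in KO, against 3 and 4 in wild type. In ES cells H3K4me2 peaks in the gene numbered 11 and 13 in KO, against 8 and 6 in wild type. No PRDM16 list had a peak in the gene, and since the deleted part is not given in the labels, peak counts over the gene do not check the genotype.

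Chromosome X gave other shares of changed regions than the autosomes, as a description without a test. Of 649 regions on chromosome X, 3 (0.46%) were KO-only and 68 (10.5%) wild-type-only, whereas of 21877 regions on chromosomes 1 to 19, 573 (2.62%) were KO-only and 1385 (6.33%) wild-type-only. Regions of the mixed choices were no more frequent on X, with 17 (2.62%) against 623 (2.85%) on autosomes for KO replicate 1 with wild-type replicate 2. Chromosome X held 2.74% and 2.86% of peaks in KO, against 3.41% and 3.13% in wild type, and in the H3K4me2 lists of ES cells 2.45% and 2.38% in KO, against 2.39% and 2.48% in wild type. On chromosome Y, the demethylase family gene Uty and the RNA helicase gene Ddx3y, the second chosen after its values were seen, had H3K4me2 peaks in 0 of 4 KO lists and in each of the 4 wild-type lists of embryoid bodies and ES cells. At Uty the embryoid body region (chrY:1242869-1246523) had scores of 183 and 323 in wild type. Kdm5d, also on Y, had an H3K4me2 peak in wild-type replicate 2 of embryoid bodies alone. Eif2s3y had one only in that list and in wild-type replicate 1 of ES cells. H3K4me2 peaks on Y numbered 2 and 3 in KO embryoid bodies, against 4 and 8 in wild type. In ES cells they numbered 3 and 1 in KO, against 7 and 5 in wild type. Of 8 embryoid body regions on Y, 1 was KO-only and 2 wild-type-only. Whether the KO line carries a Y chromosome was not tested, and a difference between lines other than at Prdm16 cannot be told apart here from one of genotype. On chromosomes 1 to 19 alone, KO-only genes numbered 447, and 314 were wild-type-only.

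H3K4me1, read from separate libraries of the same kind of embryoid bodies, was less frequent in KO at wild-type-only regions. Of these 1455 regions, 26.0% and 19.5% had an H3K4me1 peak in the KO lists, against 46.0% and 46.9% in the wild-type lists, without overlap of the groups. The means were 22.7% ± 4.57 in KO and 46.5% ± 0.68 in wild type (SD, n = 2 each; two-sided exact permutation p = 0.333, the smallest possible), a ratio of 0.49. A similar ratio was found in regions of all 4 lists, with 14.4% and 10.4% in KO, against 25.3% and 22.7% in wild type, a ratio of 0.52 (exact p = 0.333). The H3K4me1 lists themselves were shorter in KO, with 8943 and 5990 peaks, against 14082 and 13260 in wild type. At KO-only regions H3K4me1 was present at 23.1% and 15.8% in KO, against 22.4% and 24.1% in wild type, so that the groups overlapped (ratio 0.84, exact p = 0.667). In the mixed choices the ratio lay between 0.66 and 1.18.

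Regions where both marks had peaks in the lists of 1 genotype alone were counted directly. H3K4me1 peaks in neither KO and both wild-type lists were present at 216 of the wild-type-only regions (14.8%), at 5.56% of regions of all 4 lists and at 2.44% to 7.32% of regions of the mixed choices. H3K4me1 peaks in both KO lists and neither wild-type list were present at 19 of 577 KO-only regions (3.29%), at 0.42% of regions of all 4 lists and at 1.09% to 4.88% of regions of the mixed choices. No test of the difference between these shares was made, and they were not split by location. Gene ends were near 24.8% of wild-type-only regions and 80.8% of regions of all 4 lists. In wild type, H3K4me1 was present at 22.4% and 21.3% of wild-type-only regions at gene ends, against 52.5% and 53.1% outside genes. For regions of all 4 lists these values were 22.1% and 19.1%, against 43.6% and 45.3%.

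**Figure D5:**
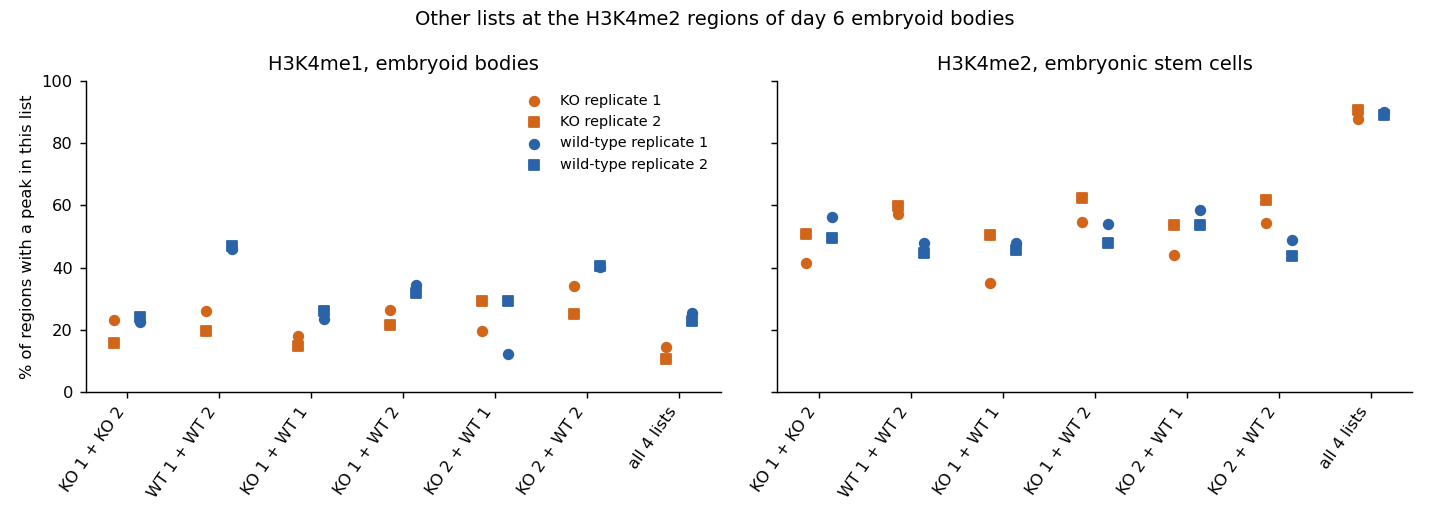
Percent of regions of each choice that had an H3K4me1 peak in embryoid bodies (left) or an H3K4me2 peak in ES cells (right), one point per library, KO in orange left of wild type in blue, replicate 1 as circles and replicate 2 as squares. At wild-type-only regions KO points lie below wild-type points for H3K4me1 in embryoid bodies and above them for H3K4me2 in ES cells.

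Most changed regions had an H3K4me2 peak in at least 1 list of ES cells, as did most regions of the mixed choices. Wild-type-only regions had such a peak more often in the KO lists than in the wild-type lists. H3K4me2 of ES cells was present at 57.3% and 59.9% of wild-type-only regions in KO, against 48.0% and 44.7% in wild type (means 58.6% ± 1.90 and 46.4% ± 2.38, SD, n = 2 each; exact p = 0.333). The mixed choices with wild-type replicate 2 had similar ratios, 1.15 and 1.25, against 1.26 at wild-type-only regions, and the ES lists were longer in KO, with 29138 and 32874 peaks, against 24600 and 22615 in wild type. At KO-only regions the values were 41.6% and 50.8% in KO, against 56.2% and 49.6% in wild type, with overlap (exact p = 0.667). At least 1 ES list had an H3K4me2 peak at 382 of 577 KO-only and 967 of 1455 wild-type-only regions. For the mixed choices the counts were 83 of 123, 460 of 640, 30 of 41 and 285 of 417. Among regions of all 4 lists the count was higher, at 9732 of 10319. PRDM16 peaks of embryoid bodies were found at 17 of 577 KO-only, 7 of 1455 wild-type-only and 194 of 10319 regions of all 4 lists. A peak in any list of either genotype was counted. The KO-only count rested mainly on the PRDM16 list of wild-type replicate 2. That list had a peak at 13 of these regions, against 1 in wild-type replicate 1 and 3 and 2 in KO. Since KO lists enter these counts too, they do not measure binding by the intact protein.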

How the data were processed

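CUT&RUN peak lists were deposited as BED tables with a score per peak, and the unit of the score is unstated. Per the submitters' processing notes, mm10, Bowtie2, SAMtools 1.5, bedtools, MACS2, deepTools and HOMER 4.10 were used, with no roles stated. The lists are per sample. No source used here states read depth, the handling of duplicates or control libraries, so depth is unknown and no floor or interval was derived from it. Each list had 1 peak outside chromosomes 1 to 19, X and Y, which was left out.

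Peaks sharing at least 1 bp were merged across the 4 lists (Python 3.11.15, pandas 2.3.3, numpy 2.4.6). Genes and promoter sequences came from RefSeq tables (GRCm38.p6). A gene was marked by a peak within 2500 bp of either of its ends, because starts were listed for 17491 of 21883 genes only. The RefSeq table's spans served as gene positions on mm10. Whole-list measures were compared by two-sided exact permutation over the 6 assignments of libraries, and region and gene patterns are counts without a test. The members, gene lists and alternatives were chosen with earlier results of these data known. Genes were named by rule: 15 gene-end regions per direction by score rank, the 5 widest, called members of 20 lists, genes with at least 3 regions of 1 direction, and Prdm16. In addition, regions of all 4 lists at least 2-fold wider in 1 genotype, and Ddx3y, Kdm5d and Eif2s3y, were named after their values were seen. Some genes that this rule selects are not reported here. The merging and test code recovered planted patterns in simulated lists. The labels state no pairing of same-numbered libraries beyond the number.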

Additional observations from a re-analysis of the deposited data

Results flagged for a closer look

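For several measures every KO library lay on one side of both wild-type libraries in embryoid bodies and on the other side in ES cells. The difference between the stages was not shown: by exact permutation within stages its p was 0.0556 for each of these measures, the smallest that this design allows, and 32 measures were looked at. KO minus wild type, as a difference of means, was -16.0 Mb in embryoid bodies and 17.3 Mb in ES cells for covered length, and 9.34 and -9.45 percentage points for the share of peaks at gene ends. For marked genes of a list it was 7 and -4 for neuroectoderm transcription factors, -8.5 and 2 for neuronal and synaptic genes, 3 and -4 for Nodal, BMP and TGF-beta genes, and -1.5 and 1.5 for mature tissue genes, in the same order. For peaks in a gene it was -5 and 3.5 at Tead1, -4.5 and 2.5 at Mcc, -4 and 3.5 at Pebp4, -4.5 and 5 at Rad51b, -3.5 and 6 at Sox5, -2.5 and 4 at Zswim6 and -3.5 and 5 at Prdm16. The gene loci were chosen from the embryoid body lists. In each stage 1 library came from the series with the prefix 400-JX, a wild-type library in embryoid bodies and a KO library in ES cells.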

How the results depend on the processing

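In 2-against-2 data no whole-list difference can pass a threshold, and peak lists without depth cannot separate absent signal from signal below the caller's limit. The whole-list differences in covered length, median width and gene-end share kept their direction under the score, replicate, chromosome and (where run) list-length alternatives, and so did that in peak number except without wild-type replicate 2 (a log2 ratio of 0.016). Leaving out 1 library in turn gave ranges of -0.409 to 0.016 for the log2 ratio of peak number, -0.677 to -0.283 for covered length, -0.402 to -0.241 for median width and 3.25 to 15.4 percentage points for gene-end share.

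With the higher-scoring 50% of each list there were 318 KO-only regions (median 4230.0 bp, 78.6% at gene ends) and 787 wild-type-only regions (3122 bp, 67.7%), with 287 KO-only and 603 wild-type-only genes. With scores of at least 100 there were 175 KO-only regions (78.9% at gene ends), wild-type-only regions had a median width of 3086 bp, with 55.1% at gene ends, and 153 genes were KO-only and 661 wild-type-only. With equal list lengths there were 924 wild-type-only regions (2347 bp, 30.3% at gene ends), and with peaks required to cover 50% of a region 2856 (2951 bp, 43.4%). The gene-end share of KO-only and wild-type-only regions was 66.4% and 21.9% with a window of 1000 bp and 80.9% and 37.8% with 10000 bp, and 57.2% and 18.8% within 2500 bp of starts, an alternative chosen after seeing the data. The cause of these shifts was not tested, except that a wider window reaches more regions.

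Fewer lists must agree when 1 is left out, so counts rise by construction. KO-only regions then ranged from 821 to 1765, with medians of 2256 to 4649 bp and 45.5% to 72.0% at gene ends, and wild-type-only regions from 1968 to 5589, with 1491 to 2553 bp and 18.4% to 36.4%. KO-only genes ranged from 610 to 920 and wild-type-only genes from 465 to 927. In KO-only and then wild-type-only regions, counts were 1304 and 2437 without KO replicate 1, 1765 and 2034 without KO replicate 2, 821 and 5589 without wild-type replicate 1, and 1279 and 1968 without wild-type replicate 2. Every alternative for the gene lists was chosen after seeing the data. With peaks under 4000 bp alone, one of these, 1583 genes were KO-only and 302 wild-type-only. The whole-list measures were not rerun with other gene windows, merging or cover. Merging within 1000 bp and the added use of chromosomes 1 to 19 alone moved no count by over 1.5 times. Gene counts do not use regions, so the merging and cover alternatives gave no value for them.

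With the replicate number as a block, the 4 whole-list differences were the same (-0.196, -0.480, -0.321 and 9.34) with exact sign-change p of 1, 0.5, 0.5 and 0.5, where 0.5 is the smallest possible. The correlation of the replicate differences in log2 covered length between genotypes was 0.025 over 10319 regions of all 4 lists. This single measure cannot show whether same-numbered libraries shared a culture or preparation.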
